A study of Drosophila melanogaster with 6 samples.

Results

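Drosophila segmentation genes form a cascade that divides the early embryo into repeated units along its length. Maternal factors switch on gap genes in broad domains, gap genes set the stripes of pair-rule genes, and pair-rule genes set the segment polarity genes, which keep boundaries in place through the Wingless and Hedgehog signals. Gap and pair-rule transcripts peak around the blastoderm, whereas many segment polarity genes stay active in the segmented epidermis. Several of these factors are used again later in neuroblasts, the gut and the head.

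The list of 34 segmentation genes was chosen by name, but with earlier results of these data known. Of these genes 27 were measured by a probe set paired with that gene alone, out of 11982 genes tested. The genes h, run, slp1, wg, fz, dsh and arm were not analysed here. Where a gene had more than 1 such probe set, the brightest over the 6 arrays stood for it, and values are log2 RMA values. RNA came from whole embryos of stages 11 to 16, sorted on a COPAS instrument. In 3 samples the embryos carried UAS-Sage under the tub-Gal4 driver, which is active in most cells, so that Sage, a basic helix-loop-helix factor of the salivary gland, was made throughout the embryo. The other 3 were wild type embryos matched in age. Oregon R is given as the background of both groups, and no driver-only or transgene-only embryos were analysed here. The stages pool many hours of development, and the labels give no finer age for any sample.

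The sage probe set read 12.17, 12.31 and 12.28 on Sage arrays 1 to 3, against 7.68, 8.08 and 7.40 on wild type arrays 1 to 3, so the libraries matched their labels. Of 28 listed tissue markers 23 were measured. The neuronal gene elav read 9.79 to 9.93 in Sage and 8.31 to 10.33 in wild type embryos, and the glial gene repo 9.16 to 9.55 in Sage and 9.36 to 10.07 in wild type embryos. The epidermal marker ple, 1 of 2 haemocyte markers (Hml) and the germ cell marker vas stayed within the range of 70 control probe sets without a fly target, whose highest group mean was 5.35. The epidermal markers grh, shot and Ddc lay above this range in both groups. The other haemocyte marker, Pxn, rose, with 10.22, 10.22 and 10.21 in Sage embryos, against 9.07, 9.27 and 9.14 in wild type embryos (log2 difference 1.06, adjusted p 0.0022). Besides Pxn and sage no marker passed the threshold. The second principal component over all genes, with 31.5% of the variance, separated the arrays numbered 2 from the others in both groups. Probe sets at the 5′ ends of the control transcripts actin, GAPDH and eIF-4a differed by -1.38, -1.21 and -1.21 (log2, Sage minus wild type), against -0.09, -0.38 and -0.39 at their 3′ ends. The part of labelling or RNA quality in the differences below was not tested. In whole embryos, fewer cells that express a gene and less RNA per cell cannot be told apart. Nothing in the labels states that the replicates were separate collections, and the p-values speak only of the spread among these 6 arrays.

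No segmentation gene passed the threshold when Sage overexpression was compared with wild type. Without driver-only or transgene-only embryos, this contrast does not separate Sage from the driver or the transgene. By limma with an adjusted p under 0.05, 0 of 27 were higher and 0 were lower, where the calls over all genes were 4.36% higher and 3.72% lower. Without adjustment 7 reached a p under 0.05 on the lower side and 0 on the higher side, or 25.9% lower, where 12.8% of all genes did so on the lower and 11.7% on the higher side. The values leaned one way all the same. The log2 difference was negative for 23 of the 27, against 51.1% of all genes, and its median was -0.25, against -0.01 over all genes. Sage arrays lay wholly below wild type arrays for 6 members (bcd, hb, oc, slp2, drm and en) and wholly above for none, where 16.1% of all genes lay below and 15.7% above. The median was -0.13 without wild type array 1 and -0.38 without both arrays numbered 2, and 19 and 24 members were negative in those fits. With the replicate numbers as a block, 2 members fell, hb and gsb-n, and 0 rose, where 7.39% of all genes were called lower and 7.35% higher. The labels do not say that arrays of the same number belong together, so the block fit does not stand for a paired design. In simulated data with 3 arrays per group, 24% of changes of 0.5 on the log2 scale and 72% of changes of 1 were recovered. Most changes of 0.5 were thus missed in the simulated data. These rates are for genes drawn from all those tested, with the same SD in both groups. The members varied more among arrays than all genes did, above all in wild type, so the rates do not hold for this list.

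**Figure D1:**
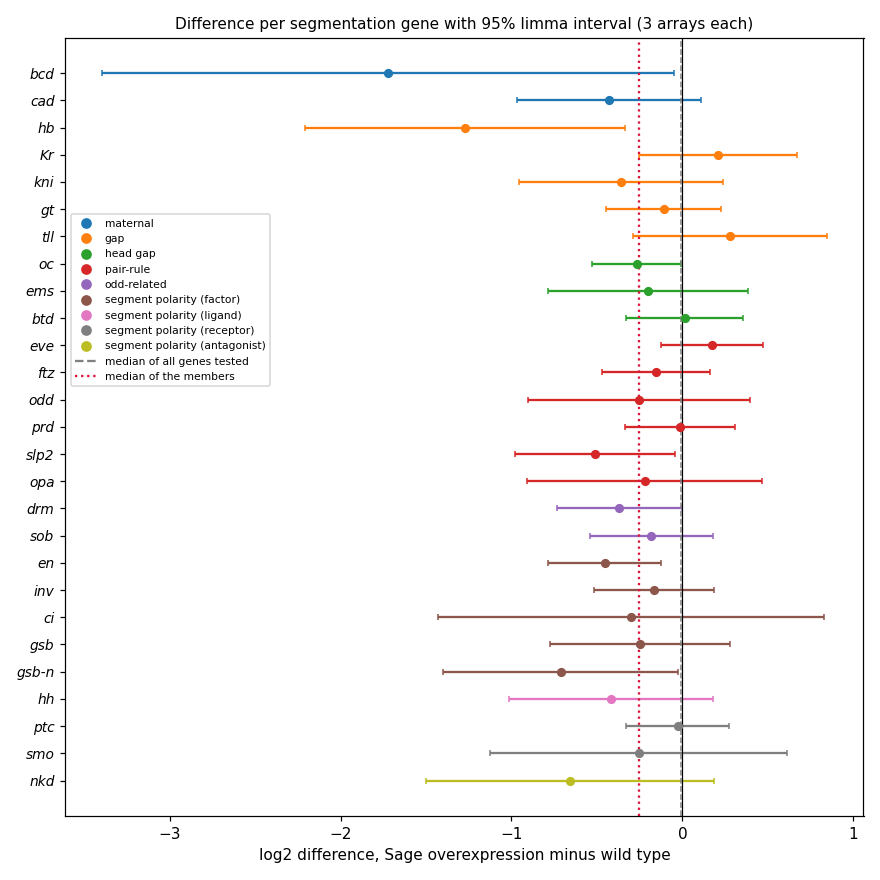
Log2 difference between Sage overexpression and wild type for each of the 27 measured segmentation genes (x axis), with the 95% limma interval, coloured by place in the cascade. Most points sit left of 0, near the members' median of -0.25, and only bcd and hb lie beyond -1.

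The maternal gene bcd and the gap gene hb held the widest differences. The anterior determinant bicoid (bcd), whose RNA is laid down by the mother and disappears early, read 6.49, 4.86 and 6.51 on the Sage arrays, against 6.70, 7.29 and 9.04 on the wild type arrays. All Sage arrays lay below all wild type arrays, but the wild type values spanned 2.34 log2 units with array 3 far above arrays 1 and 2, and Sage array 2 was within the control range. The log2 difference was -1.72 (SE 0.70, 95% interval -3.40 to -0.05, adjusted p 0.19). It was -1.04 after removal of wild type array 3 (adjusted p 0.31), and -0.97 with the mean of both bcd probe sets (adjusted p 0.21). The second bcd probe set read 5.12 in Sage and 5.34 in wild type embryos on average, both within the control range. Wild type array 3 was also the highest for the terminal receptor gene tor and the cellularisation gene slam, which were picked after their values were seen. The tor gene read 5.01, 4.17 and 4.83 in Sage embryos, against 5.28, 5.23 and 7.24 in wild type embryos. The slam gene read 5.26, 4.86 and 5.28 in Sage embryos, against 6.08, 5.76 and 7.36 in wild type embryos. Among 11 measured blastoderm genes slam was the only 1 highest on wild type array 3, and 7 were highest on wild type array 1. However, 7 of the 11 had both group means within the control range, so their order says little about early genes as a group. The maternal gene osk was also within the control range in both groups.

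Hunchback (hb), a zinc-finger gap factor that later marks the first neuroblast fates, read 6.66, 5.34 and 6.47 in Sage embryos, against 7.76, 6.90 and 7.63 in wild type embryos. The groups did not overlap, and within each group array 2 was the lowest, with Sage array 2 within the control range. Its log2 difference of -1.27 (SE 0.39, 95% interval -2.21 to -0.34) had a limma adjusted p of 0.10. With the replicate block hb fell (adjusted p 0.0050). It also passed when wild type array 2 was left out (log2 difference -1.54, adjusted p 0.039), or Sage array 2 together with it (log2 difference -1.13, adjusted p 0.0076). With Sage array 2 alone left out the difference was -0.87 (adjusted p 0.19). The hb probe set carries the suffix s, which Affymetrix gives to probe sets that can match several transcripts, and so do those used for drm, en, inv and gt.

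The remaining trunk gap genes showed no common direction. Krüppel (Kr), a zinc-finger repressor of the central gap domain, read 6.49, 6.11 and 6.55 in Sage embryos and 6.53, 5.99 and 6.01 in wild type embryos, with a log2 difference of 0.21 (95% interval -0.26 to 0.67). The nuclear receptor gene knirps (kni), which also shapes tracheal branches, read 8.21, 8.79 and 8.68 in Sage embryos and 8.89, 9.35 and 8.51 in wild type embryos. Both groups overlapped for Kr and kni. The close relative and near neighbour of kni, knrl, with 1 coding gene between them, read 6.85, 6.36 and 6.43 in Sage embryos and 8.20, 6.79 and 7.49 in wild type embryos. Wild type array 2 lay within the Sage values and the other wild type arrays above them, and the log2 difference was -0.95, which did not pass over all 6 arrays (adjusted p 0.16). It passed with the replicate block (adjusted p 0.028), after removal of wild type array 2 (adjusted p 0.018) and after removal of Sage array 2 with it (adjusted p 0.047). Removal of wild type array 1 left -0.59 (adjusted p 0.27). The terminal gene tailless (tll), needed in the head and brain, read 6.28, 6.64 and 6.73 in Sage embryos and 6.18, 6.75 and 5.89 in wild type embryos, the highest difference of the list at 0.28 (95% interval -0.29 to 0.85). Giant (gt), a bZIP gap factor, averaged 6.13 ± 0.04 in Sage and 6.24 ± 0.25 in wild type embryos (SD, n = 3 each). Its brighter probe set differed by -0.11 and its dimmer one by 0.25, so the sign depended on the probe set.

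Caudal (cad), the homeobox determinant of the posterior and hindgut, read 8.18, 8.16 and 8.39 in Sage embryos, against 8.90, 8.16 and 8.96 in wild type embryos. Wild type array 2 sat with the Sage arrays, and wild type arrays 1 and 3 lay above all of them. The log2 difference over all arrays was -0.43 (adjusted p 0.31). Leaving out wild type array 2 made it -0.69 (adjusted p 0.013), and leaving out Sage array 2 as well made it -0.64 (adjusted p 0.029). Leaving out wild type array 1 or 3 made it -0.31 or -0.29 (adjusted p 0.55 and 0.53). Among the head gap genes, empty spiracles (ems), a homeobox gene of the head and filzkörper, also had wild type arrays 1 and 3 above all Sage arrays and wild type array 2 below them, with 8.15, 8.03 and 8.15 in Sage embryos and 8.68, 7.74 and 8.52 in wild type embryos. Its difference was -0.20 over all arrays (adjusted p 0.68). It was -0.49 without wild type array 2 (adjusted p 0.029), -0.45 with Sage array 2 removed too (adjusted p 0.056), -0.02 without wild type array 1 and -0.10 without wild type array 3. Orthodenticle (oc), a homeobox gene of the head and midline, read 6.24, 6.23 and 6.14 in Sage embryos, against 6.55, 6.55 and 6.30 in wild type embryos, a narrow gap without overlap (log2 difference -0.27, adjusted p 0.19). The zinc-finger gene buttonhead (btd) differed by 0.01 (95% interval -0.33 to 0.36).

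**Figure D2:**
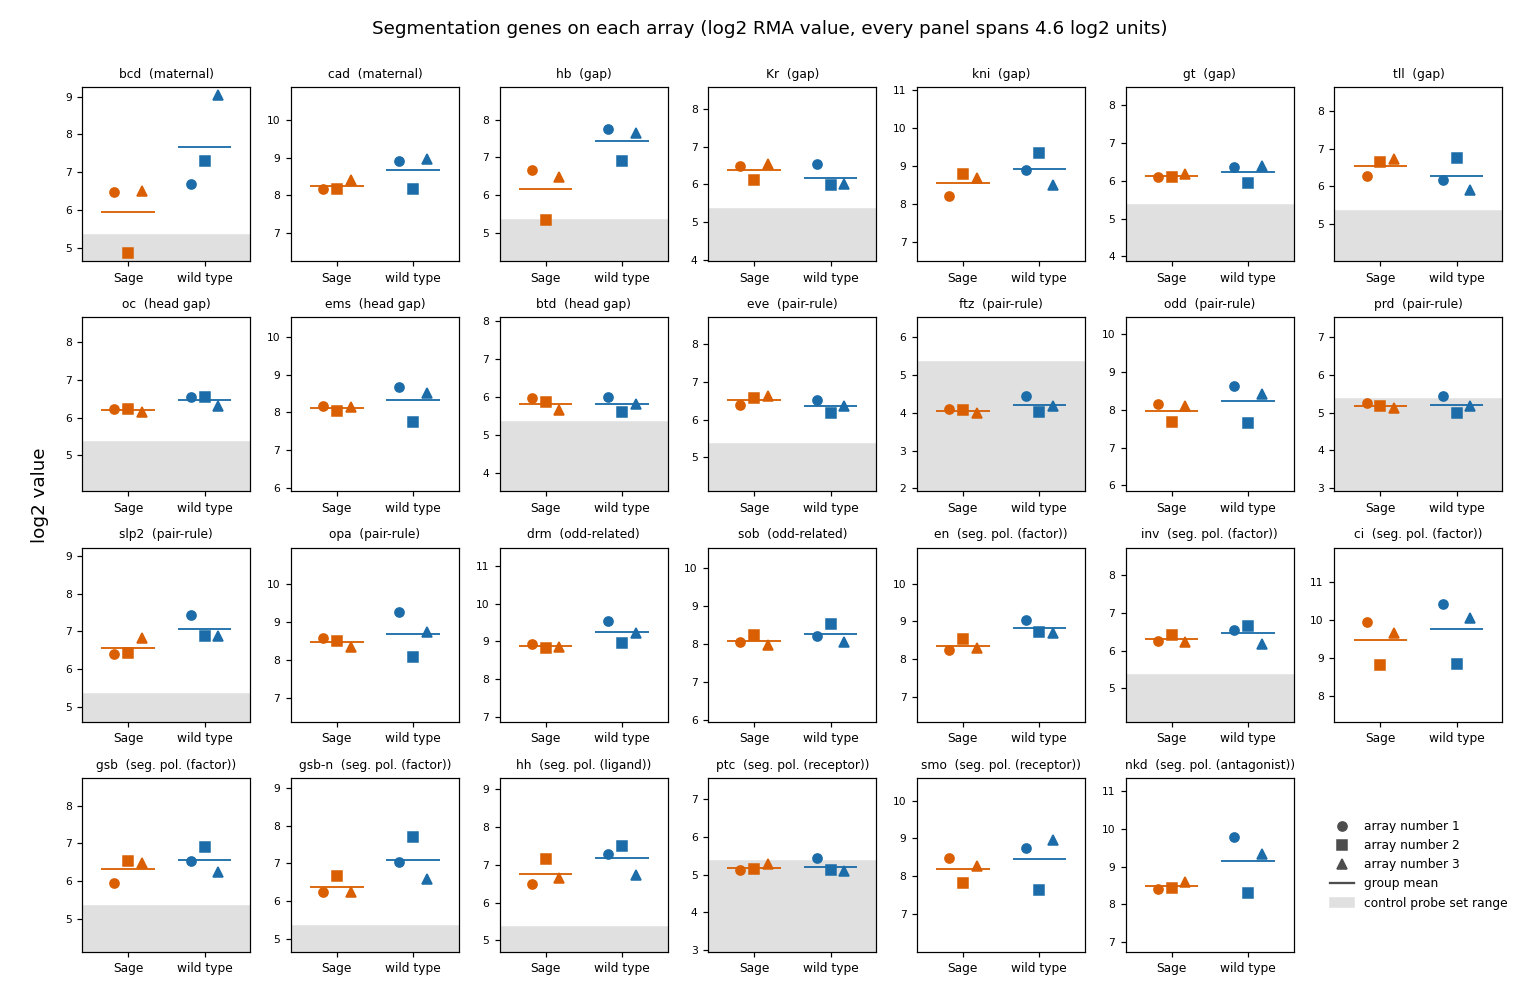
Log2 value of each measured segmentation gene on the 3 Sage arrays (left in each panel) and the 3 wild type arrays (right), with symbols for the array number, a line at the group mean and grey shading up to 5.35, the highest group mean of the control probe sets. Wild type points are spread more widely than Sage points in 26 of 27 panels, and ftz, prd and ptc lie within or at the edge of the shading.

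No measured pair-rule gene passed the threshold, and ftz and prd were not above the control range. The homeobox gene fushi tarazu (ftz), which defines alternate segments at the blastoderm, averaged 4.06 ± 0.05 in Sage and 4.21 ± 0.22 in wild type embryos, and the paired-domain gene paired (prd) 5.19 ± 0.06 in Sage and 5.20 ± 0.23 in wild type embryos (SD, n = 3 each). Both genes were within the control range in both groups, so a difference in ftz or prd was not detectable at this signal. Even-skipped (eve), a homeobox repressor retained in some neurons and heart precursors, read 6.38, 6.58 and 6.61 in Sage embryos, overlapping 6.51, 6.19 and 6.35 in wild type embryos (log2 difference 0.17, 95% interval -0.12 to 0.47).

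The forkhead gene sloppy paired 2 (slp2) read 6.40, 6.44 and 6.81 in Sage embryos, against 7.43, 6.87 and 6.88 in wild type embryos. Its groups did not overlap, although Sage array 3 lay close to wild type arrays 2 and 3, and the log2 difference of -0.51 (SE 0.20, 95% interval -0.98 to -0.04) did not pass (adjusted p 0.17). Odd-paired (opa), a zinc-finger timer of the pair-rule stage that is later needed in the midgut, read 8.57, 8.51 and 8.35 in Sage embryos and 9.27, 8.08 and 8.74 in wild type embryos. Wild type array 2 was here below every Sage array while the other wild type arrays were above.

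Odd-skipped (odd) is a zinc-finger repressor that lies beside its relative sob on chromosome arm 2L, with drm on the other side of sob beyond 1 further coding gene. The odd transcript read 8.16, 7.67 and 8.11 in Sage embryos and 8.62, 7.66 and 8.42 in wild type embryos, and drm, which acts in hindgut and foregut patterning, 8.93, 8.83 and 8.85 in Sage embryos and 9.53, 8.97 and 9.23 in wild type embryos. The sob gene read 8.04, 8.23 and 7.97 in Sage embryos and 8.22, 8.52 and 8.05 in wild type embryos. Differences were -0.25, -0.37 and -0.18 for odd, drm and sob, all with the same sign. Array 2 was the lowest of both groups for odd and drm and the highest of both groups for the adjacent sob. Without wild type array 2, drm passed with a difference of -0.51 (adjusted p 0.040). It did not pass with Sage array 2 removed too (adjusted p 0.079), and without wild type array 1 its difference was -0.23 (adjusted p 0.40).

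All 9 measured segment polarity genes had negative differences, with a median of -0.30, and none passed. Engrailed (en), the homeobox selector of posterior compartments, read 8.26, 8.52 and 8.31 in Sage embryos, against 9.05, 8.71 and 8.69 in wild type embryos. Every Sage array lay below every wild type array, with the lowest unadjusted p of the list (log2 difference -0.45, SE 0.14, 95% interval -0.78 to -0.12, adjusted p 0.10). Its paralogue and direct neighbour invected (inv) read 6.24, 6.42 and 6.23 in Sage embryos, overlapping 6.54, 6.66 and 6.19 in wild type embryos, and differed by -0.17. The paired-type factor gooseberry-neuro (gsb-n), which acts in the nervous system, read 6.25, 6.67 and 6.24 in Sage embryos, against 7.03, 7.68 and 6.57 in wild type embryos. The groups overlapped, with Sage array 2 above wild type array 3. The log2 difference of gsb-n was -0.71 (SE 0.29, adjusted p 0.19), past the threshold with the replicate block (adjusted p 0.036). Without wild type array 2 the difference was -0.42 (adjusted p 0.20). The neuroblast markers had no common sign, with log2 differences of -0.49 for dpn, -0.30 for wor and 0.21 for mira, of which dpn passed with the replicate block (adjusted p 0.048) and none over all arrays without it. The part of neuroblast number in the values of gsb-n, hb, D and pdm2 was not tested. The neighbour of gsb-n, gooseberry (gsb), which keeps wingless active in the epidermis, differed by -0.25, with 5.96, 6.52 and 6.47 in Sage embryos and 6.55, 6.90 and 6.25 in wild type embryos.

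In the Hedgehog branch the ligand gene hedgehog (hh), made by posterior compartment cells, read 6.49, 7.15 and 6.64 in Sage embryos, against 7.28, 7.51 and 6.74 in wild type embryos (log2 difference -0.42, 95% interval -1.01 to 0.18). The groups overlapped, with Sage array 2 above wild type array 3, and hh did not pass with the replicate block (adjusted p 0.13). The receptor gene patched (ptc), itself a target of the pathway, stayed within the control range, at 5.18 ± 0.08 in Sage and 5.21 ± 0.19 in wild type embryos (SD, n = 3 each). The signal transducer smoothened (smo) read 8.48, 7.82 and 8.26 in Sage embryos and 8.73, 7.64 and 8.96 in wild type embryos. Cubitus interruptus (ci), the transcription factor at the end of the pathway, read 9.96, 8.80 and 9.66 in Sage embryos and 10.43, 8.83 and 10.06 in wild type embryos. For ci the gap between array 2 and the others exceeded the difference between the groups (log2 difference -0.30, 95% interval -1.43 to 0.83). Naked cuticle (nkd), an inducible antagonist of Wingless signalling, read 8.42, 8.43 and 8.60 in Sage embryos, against 9.78, 8.31 and 9.33 in wild type embryos. The difference was -0.66 over all arrays (adjusted p 0.32). It was -1.07 after removal of wild type array 2 (adjusted p 0.0080) and -1.05 after removal of Sage array 2 with it (adjusted p 0.025). Removal of wild type array 1 left -0.34 (adjusted p 0.60).

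Array 2 stood apart from arrays 1 and 3 for many members, a pattern described without a test because it was noticed after the values were seen. All 3 Sage arrays lay below wild type arrays 1 and 3, but not below wild type array 2, for 9 of 27 members (cad, gt, ems, ftz, odd, opa, ci, smo and nkd), or 33.3%, where 7.09% of all genes did so. Array 2 was the lowest of both groups for 8 members (cad, hb, Kr, ems, odd, drm, ci and smo), or 29.6%, against 19.1% of all genes. It was the highest of both groups for 6 members (kni, sob, inv, gsb, gsb-n and hh), or 22.2%, against 32.3% of all genes. For ci, array 2 lay 1.01 below the mean of the other Sage arrays and 1.42 below the mean of the other wild type arrays. For gsb-n it lay 0.42 above the other Sage arrays and 0.88 above the other wild type arrays. Wild type arrays also differed more among themselves: the SD was larger in wild type than in Sage embryos for 26 of 27 members, hb being the exception, against 70.9% of all genes. The median SD of the members was 0.14 in Sage and 0.33 in wild type embryos, where over all genes it was 0.12 in Sage and 0.19 in wild type embryos. Leaving out wild type array 2 gave 5 lower members (cad, hb, ems, drm and nkd), where 6.61% of all genes were called lower, and leaving out both arrays numbered 2 gave 3 (cad, hb and nkd), where 4.92% were. No member was called higher in either fit, where 7.14% and 6% of all genes were. Leaving out any other single array gave no lower member. For cad, ems and nkd wild type array 2 was the array that kept the groups from separating. Their calls without it follow from the pattern described above and lend it no separate support.

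**Figure D3:**
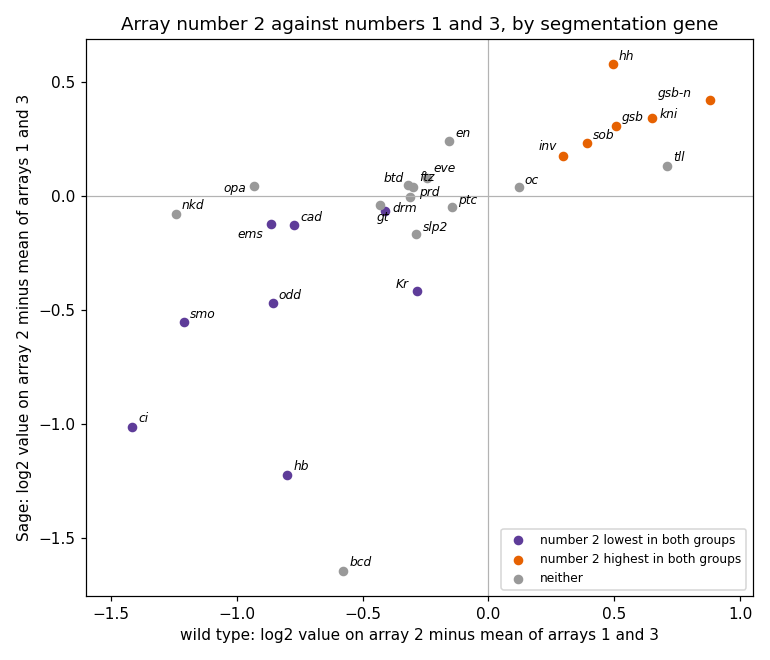
Log2 value on array 2 minus the mean of arrays 1 and 3, in wild type (x axis) and Sage embryos (y axis), for the 27 segmentation genes. Members with array 2 lowest in both groups, such as ci and hb, sit at lower left, and those with array 2 highest, such as gsb-n and hh, at upper right.

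A pair of lists served as guides to embryo age. Of 12 blastoderm genes 11 were measured, and 7 of these, among them nullo, bnk and zen, stayed within the control range in both groups. Their median was 5.12, 4.86 and 5.10 on the Sage arrays and 5.28, 5.01 and 4.84 on the wild type arrays. These medians all lay within the control range. None was called by limma, and an unadjusted p under 0.05 was reached by 2 on the lower side and 0 on the higher side. The mesoderm factor twi had the smallest p (log2 difference -0.40, adjusted p 0.10), and slam, at -1.26 (adjusted p 0.12), passed with the replicate block (adjusted p 0.032) and without wild type array 2 (adjusted p 0.032). It did not pass without both arrays numbered 2 (adjusted p 0.077) or without wild type array 3 (log2 difference -0.78, adjusted p 0.070). Of 14 late embryo genes for muscle, neurons and cuticle 10 were measured, 4 of them within the control range. Their median was 6.37, 6.39 and 6.48 on the Sage arrays and 6.17, 5.74 and 6.23 on the wild type arrays, with wild type array 2 the lowest. For 8 of 10 the difference was positive, and none passed, while 1 reached an unadjusted p under 0.05 on the higher side and 0 on the lower side. Ddc, which makes dopamine for cuticle tanning and neurons, had the smallest p, with 6.78, 7.45 and 7.72 in Sage embryos and 6.85, 6.27 and 6.80 in wild type embryos (log2 difference 0.67, adjusted p 0.19). Whether the embryos of any sample differed in age was not tested.

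Partners of the cascade gave 3 lowered and 0 raised genes among 41 measured of 61 listed, where 3.72% of all genes were called lower and 4.36% higher. Of 23 measured cofactors of segmentation 2 fell. Dichaete (D), a Sox factor of the early trunk and the nervous system, read 8.92, 9.22 and 9.13 in Sage embryos, against 9.97, 10.20 and 9.63 in wild type embryos (log2 difference -0.84, adjusted p 0.033). The POU gene pdm2, part of the same neuroblast series as hb and Kr, read 7.02, 7.31 and 7.15 in Sage embryos, against 8.06, 8.01 and 7.71 in wild type embryos (log2 difference -0.77, adjusted p 0.022). Its neuroblast companion cas differed by -0.01 (adjusted p 0.99). Leaving out wild type array 1, or any one of the Sage arrays, ended both calls, with an adjusted p of at most 0.13 for D and 0.11 for pdm2. With the replicate block mirr, a homeobox gene, rose (log2 difference 0.64, adjusted p 0.034, against 0.13 over all arrays without it). With the mean of its probe sets the difference was 0.36, without the block (adjusted p 0.39).

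In the Wingless pathway 8 of 20 genes were measured and none passed, while 1 reached an unadjusted p under 0.05 on the lower side and 0 on the higher side. Notum, a secreted enzyme that inactivates Wnt proteins, had the smallest p, with 5.37, 5.51 and 5.34 in Sage embryos, against 5.93, 6.06 and 5.72 in wild type embryos (log2 difference -0.50, adjusted p 0.056). It fell with the replicate block (adjusted p 0.033) and without wild type array 3 (adjusted p 0.047). In the Hedgehog pathway 11 of 15 genes were measured and 1 fell, the Hedgehog co-receptor gene ihog, with 8.09, 7.86 and 7.87 in Sage embryos, against 8.47, 8.56 and 8.31 in wild type embryos (log2 difference -0.50, adjusted p 0.049). That call ended when any single array was left out (adjusted p 0.053 to 0.20), and also with quantile normalization, without dim probe sets and with eBayes trend and robust settings (adjusted p 0.065 to 0.088). The related co-receptor gene boi, at -0.58, did not pass over all arrays (adjusted p 0.14). It passed only with the replicate block (adjusted p 0.048) and without wild type array 3 (adjusted p 0.048). Differences were negative for 10 of the 11 Hedgehog pathway genes and 7 of the 8 Wingless pathway genes, against 51.1% of all genes. The medians were -0.27 and -0.22, against -0.01 over all genes. The gene dlp (log2 difference -0.30) is on both lists and counts in each.

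**Figure D4:**
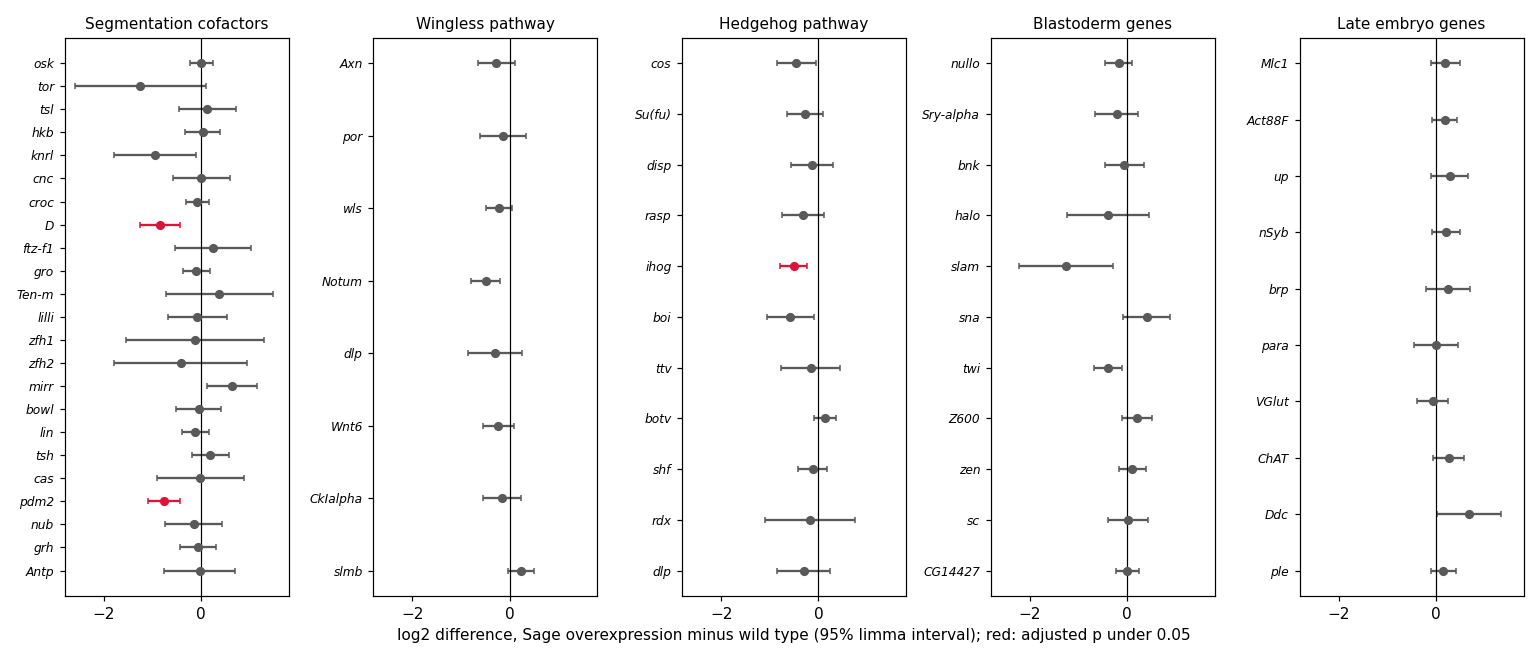
Log2 difference between Sage overexpression and wild type (x axis) with the 95% limma interval for measured genes of the 3 partner lists and the 2 lists used as guides to age. The genes past the threshold, D, pdm2 and ihog, are in red, and all 3 lie left of 0.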

How the data were processed

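Whole-embryo RNA was measured on 6 Affymetrix arrays, 3 per group, after labelling with a 3′ IVT kit per the labels. The authors' deposited values were treated as log2 expression from RMA. RMA and Partek are named in the submitters' processing notes without versions or order, and the log2 scale was read from the values, which run from 2.90 to 14.6 with array means near 6.36. Arrays give no counts, so their number limits the precision. The 183 control probe sets were kept out, leaving 18769. Of these 13647 were paired with 1 gene in the platform annotation, covering 11982 genes. The gene table of the Release 6 assembly gave gene order.

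The comparison used limma 3.58.1, run in R 4.3.3 (lmFit, eBayes, two-sided, Benjamini-Hochberg over all genes, threshold 0.05), and intervals are unadjusted. Members and gene lists were chosen with earlier results of these data known. All measured members are named, and from each partner or age list up to 4 genes past the threshold by size, or that with the smallest p. The genes tor, slam, knrl, mirr, boi, cas, osk and the tissue markers given singly were named after their values were seen. Deviations from group means correlated at 0.39, 0.67 and 0.33 between arrays of the same number, and at -0.57 to 0.43 otherwise, Sage 1 correlating best with wild type 3. The block fit took the numbers as pairs, although the labels do not state this and the correlations set only number 2 apart. Alternatives were median centring, quantile normalization, leaving out dim probe sets, eBayes with trend and robust settings, the replicate block, averaging all probe sets of a gene, an adjusted p under 0.01 and leaving out arrays. In simulated data for this comparison on 11982 genes, log2 changes of 0.5, 1, 2 and 4 were given to 50 genes each, drawn at random. Each gene had the same SD in both groups. Of these changes 24%, 72%, 92% and 98% were recovered, with 8 false calls among 151. Plots came from matplotlib 3.10.9 with pandas 2.3.3, in Python 3.11.15.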

Additional observations from a re-analysis of the deposited data

How the results depend on the processing

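No segmentation gene was called higher under any setting. The count of lower members was 2 with the replicate block, 3 without both arrays numbered 2 and 0 to 5 when single arrays were left out. It was 0 under each of the other settings. The replicate block also gave 881 raised and 886 lowered genes in all, and 1 raised and 6 lowered partner genes. Among the members it changed the call of hb and gsb-n alone. An adjusted p under 0.01 left 206 raised and 86 lowered genes, and 0 lowered partner genes. With single arrays left out, all genes gave 199 to 856 raised and 75 to 792 lowered, and partner genes 0 to 5 lowered. Signs turned for the log2 differences of 7 members. With median centring btd was at -0.0251, without both arrays numbered 2 btd was at -0.1103, and with the mean of its probe sets gt was at 0.0699. With single arrays left out, log2 differences ranged from -0.0937 to 0.1115 for btd, -0.7725 to 0.0356 for ci, -0.5319 to 0.0676 for opa, -0.1173 to 0.106 for prd, -0.0883 to 0.081 for ptc and -0.6597 to 0.0028 for smo. The cause of these changes was not tested, and fits without an array have fewer arrays to estimate the spread. Of 375 member values under other settings 351 kept sign and side of the threshold, 10 newly passed it and 14 turned sign. Leaving out dim probe sets removed ftz, prd and ptc, whose signal lay within the control range.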
